A study of Homo sapiens with 12 samples.

Results

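The 10 genes described here encode enzymes that build fatty acids from acetyl-CoA and then lengthen and desaturate them. They are ACLY, ACSS2, ACACA, ACACB, FASN, ELOVL6, SCD, FADS2, ELOVL5 and FADS1. They were chosen by gene symbol from the 53361 rows of the deposited expression table, taking the row with the highest mean where a symbol had several rows. All 10 were found, and all 10 were among the 30712 rows with at least 1 FPKM (fragments per length of transcript, scaled by the fragments mapped) in at least 3 libraries, which were the rows tested.

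Fatty acid synthesis starts in the cytosol with acetyl-CoA, which ATP citrate lyase (ACLY) makes from citrate and acetyl-CoA synthetase (ACSS2) makes from acetate. The acetyl-CoA carboxylases (ACACA, ACACB) turn it into malonyl-CoA, fatty acid synthase (FASN) joins these units into palmitate, and elongases and desaturases in the endoplasmic reticulum lengthen palmitate and dietary fatty acids and add double bonds. The sterol-regulated transcription factors SREBP-1 and SREBP-2, encoded by SREBF1 and SREBF2, are known activators of many of these genes and of the cholesterol pathway.

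RNA was sequenced from hTERT-RPE1, a human line of retinal pigment epithelium kept dividing by added telomerase, in 4 groups of 3 libraries. Reversine, an inhibitor of the mitotic kinase Mps1, was applied at 0.5 µM for 24 h, and these cells were washed and harvested 48 h later. Bafilomycin A1 (BafA1), an inhibitor of the proton pump that acidifies lysosomes, was applied at 0.1 µM for 6 h, and MG132, an inhibitor of the proteasome, at 1 µM for 24 h. Control cells were untreated, and the labels name neither a vehicle nor a time for them. All cells grew in serum-containing medium, doses and times differed between the drugs, and all libraries came from 1 cell line. Nothing in the labels says that the libraries of a group were separate cultures, so p-values measure the spread between these libraries, which may be technical.

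Read depth is unknown, because the table holds no counts. In 4 libraries (reversine 1, BafA1 3, MG132 2 and MG132 3), values fell as the GC content of the transcript rose, by 0.09 to 0.47 log2 units per 10 percentage points; in the other 8 libraries values rose with GC content by 0.09 to 0.21. The 10 most abundant rows held 42.9% of the total in BafA1 2, against 9.3% to 23.2% in the remaining libraries. In control 3, MG132 2 and MG132 3, 9118 to 10150 rows were listed at 0 and the median log2(FPKM + 1) of tested rows was 1.71 to 2.15, against 889 to 4240 rows and 2.57 to 3.37 in the other 9 libraries; their part in the MG132 results was not tested beyond leaving each out. The line lacked the visual-cycle gene RPE65 (at most 0.06 FPKM) and the pigment gene TYR (at most 0.62 FPKM), while MITF (9.29 to 20.3 FPKM) and OTX2 (10.1 to 17.3 FPKM) were present. The adipocyte genes ADIPOQ, PLIN1 and LEP were at most 0.58 FPKM in every library. Of the other adipocyte markers, FABP4 had 0.80 to 1.78 FPKM, CIDEC 1.11 to 1.74 FPKM and PPARG 9.39 to 16.7 FPKM. The 11 pigment epithelium markers summed to 477 to 732 FPKM in MG132 and 1240 to 1402 FPKM in control, with KRT8 and KRT18 making up most of the sum; their part in the MG132 results was not tested.

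SCD, ACSS2 and FADS2 rose in BafA1, and FADS2, FADS1 and ACLY fell in MG132; none of the 10 passed the test after reversine. In BafA1 against control, 3 of 10 genes were called higher and 0 lower by limma with a Benjamini-Hochberg adjusted p under 0.05, where 0.202% of all 30712 rows were called higher and 0.0619% lower. This count was 1, SCD, when any 1 of the 6 libraries was left out. In MG132 against control 0 were called higher and 3 lower, where 7.14% of all rows were called higher and 7.67% lower. In reversine against control 0 of 10 were called, where 2.09% of all rows were called in either direction. An unadjusted limma p under 0.05 was seen for 2 of the 10. The share of all rows at that level is not given, so this count is a description only. The median log2 difference of the 10 genes was 0.90 in BafA1, −0.48 in MG132 and −0.21 in reversine against control, beside 0.14, 0.04 and 0.09 over all rows in the same comparisons. The comparisons share their controls. In cells measured in bulk, fewer cells expressing a gene and less RNA per cell cannot be told apart.

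**Figure D1:**
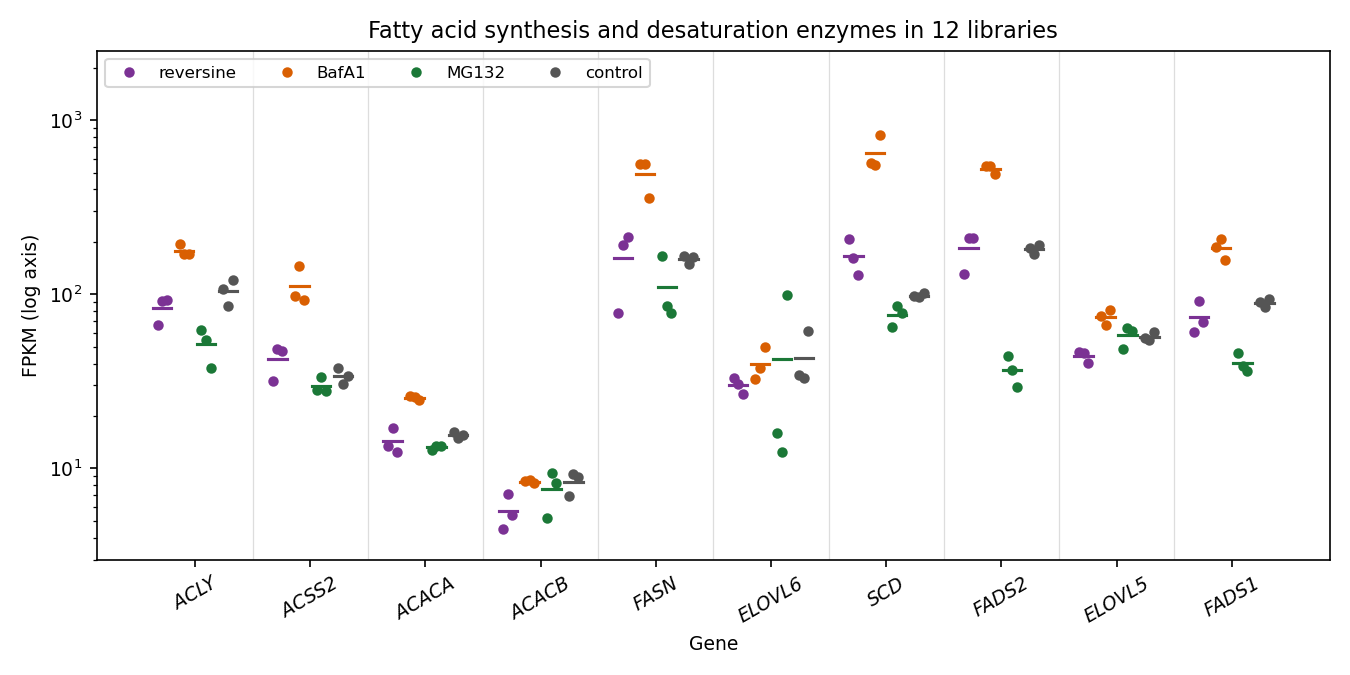
Level of each of the 10 genes in FPKM (log axis) in the 12 libraries, in the order reversine, BafA1, MG132 and control; points are libraries and bars are means of 3. BafA1 libraries lie above control for 8 of the 10 genes, and MG132 libraries lie below control for 5.

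**Figure D2:**
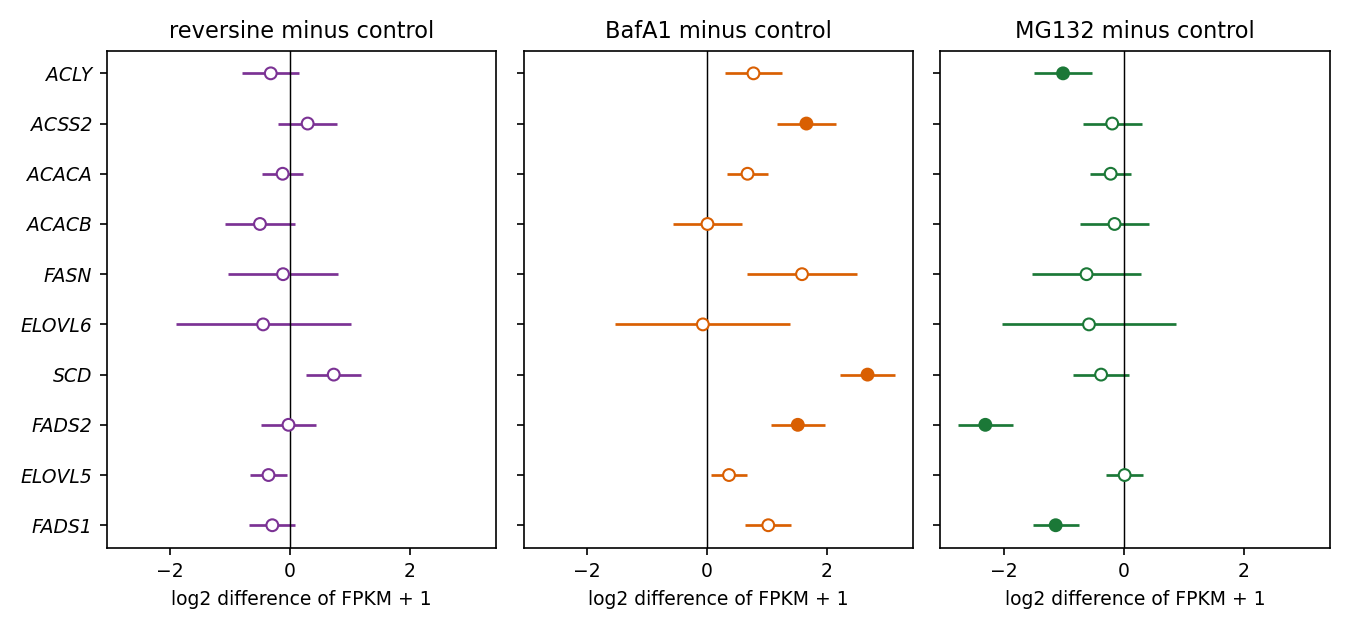
Log2 difference of FPKM + 1 from control for each of the 10 genes in reversine, BafA1 and MG132; points are limma estimates from 3 libraries against 3, lines are 95% confidence intervals and filled points passed the test. The filled points are SCD, ACSS2 and FADS2 in BafA1 and FADS2, FADS1 and ACLY in MG132.

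No overlap between the 3 libraries of a treatment and the 3 of control was seen with all BafA1 libraries higher for 8 of the 10 genes, where 15.7% of all rows showed this pattern. All MG132 libraries were lower than all control libraries for 5 of the 10, where 13.5% of all rows were. In reversine the counts were 1 higher and 2 lower, where 9.97% and 10.1% of all rows were higher or lower without overlap. The log2 differences are of FPKM + 1, which understates changes of genes with low values.

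Of the enzymes that supply acetyl-CoA, ACSS2 rose in BafA1 and ACLY fell in MG132. ACSS2 (ENSG00000131069) had 31.9, 48.4 and 47.5 FPKM in reversine, 97.7, 145 and 92.8 FPKM in BafA1, 28.0, 33.4 and 27.7 FPKM in MG132, and 37.8, 30.4 and 33.9 FPKM in control. Every BafA1 library was above every library of the other groups. ACSS2 rose in BafA1 by 1.66 ± 0.22 on the log2 scale (SE, limma adjusted p 0.0182), which is 3.28 times the control mean. The call was lost when any of the 6 libraries was left out (adjusted p 0.0510 to 0.107), when only these 2 groups were fitted (0.133), and without the 4 libraries whose values fell with GC content (0.0866). In reversine (0.30, adjusted p 0.644) and MG132 (−0.19, adjusted p 0.509) the difference from control did not pass the test.

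ACLY (ENSG00000131473) had 66.3, 91.8 and 92.4 FPKM in reversine, 194, 170.2 and 170.2 FPKM in BafA1, 62.5, 54.9 and 38.0 FPKM in MG132, and 107, 85.7 and 120.0 FPKM in control. MG132 libraries were all below control and BafA1 libraries all above. In MG132 the gene fell by 1.01 ± 0.21 on the log2 scale (limma adjusted p 0.0124), to 0.497 times the control mean. That call was lost without control 1 (adjusted p 0.0524) or control 3 (0.0576), and with only these 2 groups fitted (0.0522). Without the 4 libraries whose values fell with GC content, MG132 1 was the only MG132 library and the difference was −0.72. In BafA1 the log2 difference was 0.78 ± 0.21 (adjusted p 0.344) and in reversine −0.32 ± 0.21 (adjusted p 0.592). Another row with the same symbol, ENSG00000260245, held 8.66 to 23.2 FPKM in MG132, 64.4 to 91.5 FPKM in BafA1 and 16.5 to 43.5 FPKM in control. With both rows added up, an alternative chosen after the data were seen, the log2 difference was −0.95 (adjusted p 0.00284) in MG132 and 0.92 (adjusted p 0.0516) in BafA1. Reads of ACLY could be divided between these rows. Its annotated exons also share 156 bases with the gene AC125257.2 on the opposite strand, so its own values are uncertain.

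ACACA and ACACB, the carboxylases that make malonyl-CoA in the cytosol and at the mitochondrial surface, passed the test against control in no treatment. ACACA (ENSG00000132142) had 13.5, 17.0 and 12.5 FPKM in reversine, 26.1, 25.8 and 24.7 FPKM in BafA1, 12.8, 13.5 and 13.5 FPKM in MG132, and 16.1, 15.0 and 15.6 FPKM in control. The BafA1 libraries were tightly grouped and above all others. The log2 difference in BafA1 was 0.68 ± 0.15, with a limma adjusted p of 0.191. ACACB (ENSG00000076555), the least abundant of the 10 in each group, had 4.49 to 7.16 FPKM in reversine, 8.22 to 8.54 FPKM in BafA1, 5.17 to 9.45 FPKM in MG132 and 6.97 to 9.29 FPKM in control, so that the groups overlapped with control throughout. Its log2 difference in BafA1 was 0.01, with a 95% confidence interval of −0.57 to 0.59. The ratio of ACACA to ACACB, chosen after values were seen and given as a description, was 3.0, 2.38 and 2.30 in reversine libraries, 3.08, 3.02 and 3.01 in BafA1, 2.48, 1.42 and 1.64 in MG132, and 2.31, 1.61 and 1.75 in control. The highest reversine library was close to the BafA1 libraries, and MG132 overlapped with control.

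FASN (ENSG00000169710), which assembles palmitate, passed the test against control in no treatment and varied widely within each treated group. It had 77.9, 191 and 214 FPKM in reversine, 559, 558 and 358 FPKM in BafA1, 166, 85.8 and 77.7 FPKM in MG132, and 167, 148 and 164 FPKM in control. The lowest library in reversine and BafA1, and the lowest 2 in MG132, were the 4 whose values fell with GC content. The GC content of FASN, 65.4%, was at the 97.5th percentile of the tested rows with a value. BafA1 libraries were all above control (log2 difference 1.59 ± 0.41), but the limma adjusted p was 0.285. After correction of each library for its GC and length trend the difference was 1.69 (adjusted p 0.00345), and without the 4 libraries it was 1.80 (adjusted p 0.0104). In MG132 the log2 difference was −0.62 (adjusted p 0.300), and it was 0.12 after the correction. Without the 4 libraries it was 0.06, with MG132 1 the only MG132 library left.

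**Figure D3:**
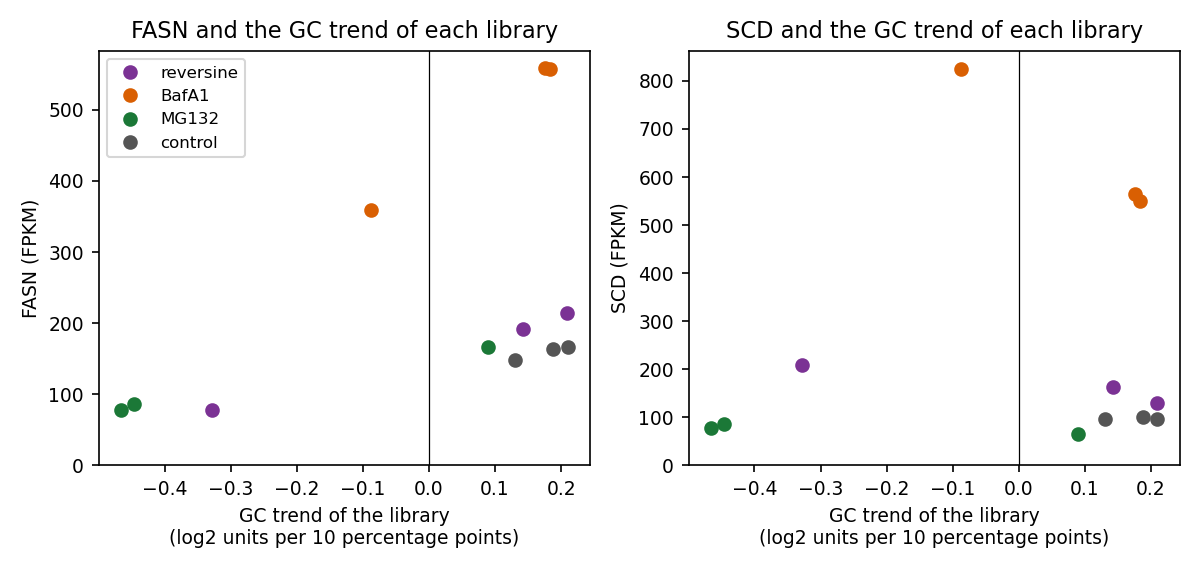
FPKM of FASN (left) and SCD (right) in each of the 12 libraries against the library's trend with transcript GC content, in log2 units per 10 percentage points. FASN is at 77.7 to 85.8 FPKM in the 3 libraries with the steepest fall, from reversine and MG132, while SCD is highest in the BafA1 library whose values fell with GC content (825 FPKM).

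ELOVL6 (ENSG00000170522), the elongase that lengthens palmitate to stearate, passed the test against control in no treatment, with single libraries standing apart in 2 groups. It had 32.9, 30.7 and 26.8 FPKM in reversine, 32.8, 37.7 and 49.5 FPKM in BafA1, 15.9, 12.5 and 98.6 FPKM in MG132, and 34.5, 33.0 and 61.5 FPKM in control. MG132 3 and control 3 stood well above the other libraries of their groups. The log2 difference in MG132 was −0.58 ± 0.65 (limma adjusted p 0.499), and without MG132 3 it was −1.48 (adjusted p 0.0227). In BafA1 the 95% confidence interval of the log2 difference from control ran from −1.52 to 1.39.

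SCD (ENSG00000099194), the stearoyl-CoA desaturase that makes oleate, was the gene of the 10 with the highest log2 difference in BafA1. It had 209, 162 and 129.5 FPKM in reversine, 566, 550.2 and 825 FPKM in BafA1, 64.5, 85.5 and 77.7 FPKM in MG132, and 97.2, 96.2 and 101 FPKM in control. BafA1 libraries stood far above all others, reversine libraries lay above control and MG132 libraries below it, each without overlap. SCD rose in BafA1 by 2.68 ± 0.20 on the log2 scale (limma adjusted p 0.00131), 6.59 times the control mean, and this call held in each of the 13 alternatives run. In reversine the log2 difference of 0.73 ± 0.20 had an unadjusted p of 0.00568 and an adjusted p of 0.132. In MG132 it was −0.38 (adjusted p 0.201).

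FADS2 (ENSG00000134824) and FADS1 (ENSG00000149485) encode the delta-6 and delta-5 desaturases of polyunsaturated fatty acid synthesis, and both fell in MG132. FADS2 had 130.3, 211 and 211 FPKM in reversine, 544, 546 and 488 FPKM in BafA1, 44.0, 36.5 and 29.3 FPKM in MG132, and 185, 171 and 193 FPKM in control. FADS1 had 60.4, 91.4 and 69.6 FPKM in reversine, 188, 207 and 158 FPKM in BafA1, 46.1, 39.0 and 36.1 FPKM in MG132, and 90.4, 84.5 and 93.3 FPKM in control. For both genes MG132 libraries were all below control, BafA1 libraries all above, and reversine overlapped with control.

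In MG132, FADS2 fell by 2.31 ± 0.20 on the log2 scale (limma adjusted p 0.000123), to 0.200 times the control mean, and FADS1 by 1.13 ± 0.17 (adjusted p 0.00240), to 0.452 times. Both calls held in each of the 13 alternatives. In BafA1, FADS2 rose by 1.52 ± 0.20 (adjusted p 0.0191), a call lost without any 1 of the 6 libraries compared (adjusted p 0.0809 to 0.117). The log2 difference of FADS1 in BafA1 was 1.03 ± 0.17 with an adjusted p of 0.0584; it passed the test with a pseudocount of 0.1 (0.0466), with at least 5 FPKM required (0.0339) and after the GC and length correction (0.00437). The annotated exons of the FADS1 and FADS2 genes share 490 bases on opposite strands, and no strand setting is stated. Reads from that stretch therefore cannot be told apart. On the same strand, FADS1 shares 80 exon bases with MIR1908 and FADS2 shares 49 with FEN1.

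ELOVL5 (ENSG00000012660), the elongase that acts between these desaturases, passed the test against control in no treatment. It had 46.5, 46.0 and 40.6 FPKM in reversine, 75.4, 66.2 and 81.1 FPKM in BafA1, 48.6, 64.1 and 61.5 FPKM in MG132, and 56.1, 54.6 and 60.4 FPKM in control. Reversine libraries were all below control and BafA1 libraries all above. The log2 difference was −0.36 in reversine (limma adjusted p 0.317), 0.37 in BafA1 (0.478) and 0.02 in MG132 (0.997). After the GC and length correction the reversine difference was −0.45 and passed the test (adjusted p 0.0397).

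The proportions of the desaturases are given as a description, in ratios chosen after their values were seen. FADS2 was 2.16, 2.31 and 3.03 times FADS1 in reversine libraries, 2.90, 2.64 and 3.09 times in BafA1, 0.953, 0.937 and 0.812 times in MG132, and 2.04, 2.03 and 2.06 times in control. SCD was 1.60, 0.768 and 0.614 times FADS2 in reversine, 1.04, 1.01 and 1.69 times in BafA1, 1.47, 2.34 and 2.65 times in MG132, and 0.526, 0.562 and 0.525 times in control. In the MG132 libraries FADS2 was below FADS1, and in the control libraries both ratios lay in a narrow range.

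**Figure D4:**
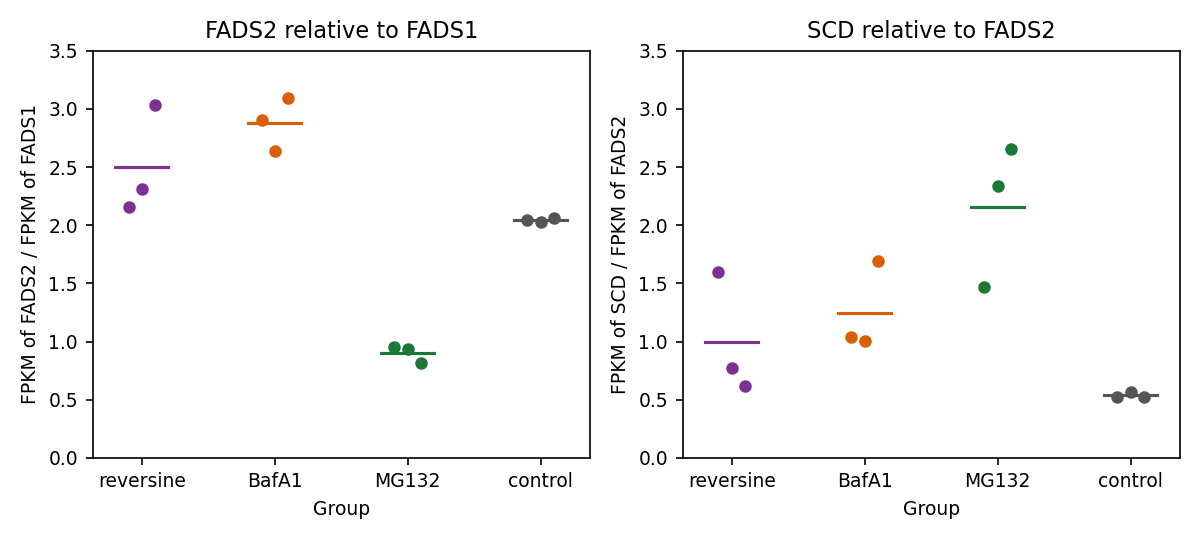
Ratio of FADS2 to FADS1 (left) and of SCD to FADS2 (right), from FPKM, in each library of reversine, BafA1, MG132 and control; points are libraries and bars are means of 3. FADS2 exceeds FADS1 in the reversine, BafA1 and control libraries and lies below it in the 3 MG132 libraries.

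The order of the 10 genes by mean FPKM, which is per transcript length, differed between groups. In control it ran FADS2, FASN, ACLY, SCD, FADS1, ELOVL5, ELOVL6, ACSS2, ACACA and ACACB, where ACLY and SCD, and ELOVL5, ELOVL6 and ACSS2 as neighbours, overlapped between libraries. In BafA1 SCD led (647 ± 154 FPKM, SD, n = 3), followed without overlap by FADS2 (526 ± 33.0 FPKM). FASN libraries overlapped with those of FADS2 and of SCD. In BafA1 2 FASN was above SCD (558 against 550.2 FPKM). In MG132 FADS2, first in control and in reversine, was in place 7 at 36.6 ± 7.34 FPKM, and the neighbours from ELOVL5 down to ACSS2 overlapped. In reversine each gene from FADS2 through SCD, FASN and ACLY to FADS1 overlapped with the next in that order, and FADS1 did not overlap with ELOVL5 after it.

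Direct comparisons between treatments use different doses and times, so they set these exposures side by side. In BafA1 against reversine 7 of the 10 genes were called higher, where 0.785% of all rows were: ACACA, ACLY, ACSS2, SCD, FADS1, FADS2 and ELOVL5. In 9 of the 10 all BafA1 libraries were above all reversine libraries, as in 7.83% of all rows. SCD differed by 1.95 (limma adjusted p 0.00234) and FADS2 by 1.54 (0.00678). This count was 3 without BafA1 1, without BafA1 2 or without the 4 libraries whose values fell with GC content, and 4 without reversine 1, reversine 3 or BafA1 3. When only these 2 groups were fitted it was 0, where 5 rows in all were called.

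In BafA1 against MG132 7 of the 10 were called higher, where 6.37% of all rows were: ACACA, ACLY, ACSS2, FASN, SCD, FADS1 and FADS2. FADS2 differed by 3.83 ± 0.20 on the log2 scale (limma adjusted p 1.06e-05), 14.4 times the MG132 mean, SCD by 3.06 (3.66e-05) and FASN by 2.21 (0.00764). In 8 of the 10 the groups did not overlap and BafA1 was higher, as in 18.9% of all rows. The count of calls was 6 to 8 in the 13 alternatives. In MG132 against reversine 3 of the 10 were called lower, where 3.52% of all rows were. FADS2 fell by 2.28 on the log2 scale (adjusted p 0.000253), SCD by 1.11 (0.0124) and FADS1 by 0.84 (0.0195). All MG132 libraries were below all reversine libraries in 4 of the 10, as in 7.71% of all rows, and above them in 1 (ELOVL5), as in 14.7%. The FADS1 call was lost without reversine 2, reversine 3, MG132 2 or MG132 3. Without the 4 libraries whose values fell with GC content, the FADS1 difference was −0.78, with MG132 1 the only MG132 library. Fitting these 2 groups alone left 1 of the 3 calls, that of FADS2. Without MG132 1, 17052 rows in all were called, against 2000 with all libraries. Of the 10 genes, 5 were then called, in both directions. The gained calls were ACLY, lower (−0.84, limma adjusted p 0.0188), and ELOVL5, higher (0.49, 0.0140).

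Promoters were searched on both strands for short motifs associated with lipogenic regulation. These were the sterol regulatory element TCACNCCAC, the E-box CACGTG, the CCAAT box and the GC box GGGCGG. Each window was the 250 bases before a RefSeq start on GRCh38.p14. Of the 10 genes 9 matched the RefSeq promoter table, with 15 windows. FASN did not match, so its promoter was not searched. TCACNCCAC was in 0 of 15 windows, beside 0.883% of 35116 windows of all genes. With a share that low, 0 of 15 windows says little about these promoters. CACGTG was in 1 (ELOVL5), beside 6.34%. CCAAT was in 8 of 15, beside 32% of all windows, and GGGCGG in 11 of 15, beside 42.6%. By gene, 6 of 9 had CCAAT and 8 of 9 had GGGCGG, and the shares over all genes are not given. The ACLY windows overlap, so the same ACLY matches were counted in both. These matches describe the letters in these windows and are not sites of binding. Stretches from SCD, ACSS2 and ACLY are shown because each gene was called in BafA1 or MG132 and has CCAAT in this window. FADS1 and FADS2 were called too but had no CCAAT match. Each stretch stops at the first annotated exon, so SCD shows 141 and ACSS2 203 of the 250 bases. The SCD matches to GGGCGG, 33 and 11 bases before the start, lie outside its stretch. Each runs 5′ to 3′ on the gene's strand, with capitals marking CCAAT or GGGCGG or their reverse complements ATTGG and CCGCCC.
SCD, chr10:100346983-100347123, plus strand: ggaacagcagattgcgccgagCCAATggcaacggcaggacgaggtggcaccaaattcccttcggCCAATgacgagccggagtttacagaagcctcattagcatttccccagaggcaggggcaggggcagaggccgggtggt
ACSS2, chr20:34874739-34874941, plus strand: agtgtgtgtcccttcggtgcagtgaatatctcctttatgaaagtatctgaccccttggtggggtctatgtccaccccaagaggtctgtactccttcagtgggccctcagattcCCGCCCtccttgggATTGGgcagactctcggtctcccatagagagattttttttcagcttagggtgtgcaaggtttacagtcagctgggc
ACLY, chr17:41919023-41919272, minus strand: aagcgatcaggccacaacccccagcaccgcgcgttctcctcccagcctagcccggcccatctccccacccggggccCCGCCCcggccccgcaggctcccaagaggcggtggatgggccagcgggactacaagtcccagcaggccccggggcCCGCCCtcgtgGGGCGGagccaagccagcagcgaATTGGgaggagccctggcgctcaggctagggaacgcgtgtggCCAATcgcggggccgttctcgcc

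In the related gene lists, the calls in BafA1 were INSIG1 and genes of the cholesterol list. Among 14 tested regulators of SREBP and lipogenesis, 1 rose and 0 fell, where 0.202% of all rows were called higher and 0.0619% lower. It was INSIG1, which retains the SREBP escort protein in the endoplasmic reticulum, with 354, 359.9 and 325 FPKM in BafA1 and 57.7, 50.0 and 47.4 FPKM in control (log2 difference 2.72, limma adjusted p 5.21e-05). SREBF1 had 216, 208 and 145 FPKM in BafA1 and 106, 96.9 and 101 FPKM in control; its log2 difference of 0.88 did not pass (adjusted p 0.472), but did after the GC and length correction (0.00184) and without the 4 libraries (0.0453). SREBF2 (0.82, adjusted p 0.478), INSIG2 (1.25, 0.180), SCAP (−0.32, 0.733) and MLXIPL (0.18, 0.576) did not pass. INSIG2 passed after the GC and length correction (1.13, adjusted p 0.0179). Of the 6 genes of the cholesterol list, 5 rose, among them the synthase gene HMGCS1 (2.86, adjusted p 0.00922). The HMGCS1 call was lost without BafA1 1, control 1 or control 3, and with only these 2 groups fitted (0.0609).

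None of the 11 other elongation and desaturation genes, the 10 genes of acetyl-CoA and NADPH supply, the 15 of fatty acid activation and glycerolipid synthesis, the 14 of fatty acid oxidation or the 6 of mitochondrial fatty acid synthesis was called by limma in BafA1. With 0.202% of all rows called higher and 0.0619% lower, a count of 0 in these lists was near those shares. At an unadjusted p under 0.05 the counts were 1, 3, 3, 3 and 1 in these lists, and the share of all rows at that level is not given. Their median log2 differences were −0.16, 0.17, 0.15, 0.14 and −0.05. In reversine 0 genes were called in each of the 7 lists, where 2.09% of all rows were called in either direction. At an unadjusted p under 0.05 there were 4, 4, 2, 2 and 0 genes in the same lists as for BafA1. There were 0 among the regulators and 2 among the cholesterol genes. In reversine the log2 differences of SREBF1, SREBF2, SCAP, INSIG1, INSIG2, MLXIPL and HMGCS1 ran from −0.60 (SCAP) to 0.86 (HMGCS1), with adjusted p of 0.288 or more.

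In MG132 genes of these lists were called in both directions, as were 7.14% (higher) and 7.67% (lower) of all rows in that comparison, and the list counts are descriptions to be read against those shares. Of the 11 other elongation and desaturation genes, 1 rose and 3 fell: HSD17B12, the ketoreductase of the elongation cycle, had 144, 197 and 166 FPKM in MG132 and 47.3, 42.7 and 62.1 FPKM in control (log2 difference 1.72, limma adjusted p 0.00114), while TECR, the last enzyme of that cycle, fell by 0.71 (0.00734), and the elongase gene ELOVL2 fell by 0.82 (0.0286). ELOVL2 was low throughout, with 0.51 to 1.09 FPKM in MG132 and 1.96 to 2.53 FPKM in control. The ELOVL2 call was lost without MG132 2, MG132 3 or any control library, and that of TECR after the GC and length correction (−0.29, adjusted p 0.297). Of the 10 supply genes, 3 rose and 3 fell. ME1, the cytosolic malic enzyme that makes NADPH, rose with 44.6, 63.8 and 65.9 FPKM in MG132 and 14.5, 13.9 and 14.5 FPKM in control (1.93, adjusted p 0.000168), and IDH1 rose by 1.18 (0.00599). Without the 4 libraries whose values fell with GC content, MG132 1 was the only MG132 library and the IDH1 difference was 0.82. ACSS3, a mitochondrial acyl-CoA synthetase, had 1.86 to 1.90 FPKM in MG132 and 1.16 to 1.33 FPKM in control, near the 1 FPKM filter. It rose by 0.35 (0.0124), a call lost after the GC and length correction (0.077, 0.729) and with median-ratio scaling (0.25, 0.0563). The ACSS3 call was also lost with only these 2 groups fitted (0.0570) and without control 1 (0.0652).

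Among the 14 regulators 2 fell in MG132, where 7.67% of all rows did: MID1IP1, which promotes polymerisation of acetyl-CoA carboxylase, by 0.82 (limma adjusted p 0.0239) and SREBF1 by 0.96 (0.0489). Both calls were lost without MG132 2, MG132 3 or any control library, and with only these 2 groups fitted. Without the 4 libraries whose values fell with GC content, MG132 1 was the only MG132 library. The differences were then −0.47 for SREBF1 and −0.45 for MID1IP1. The SREBF1 call was also lost with no filter (adjusted p 0.0763). SREBF2 (−0.54, 0.237), SCAP (−0.68, 0.128), INSIG1 (0.26, 0.132), INSIG2 (0.74, 0.0937) and MLXIPL (0.24, 0.102) did not pass. After the GC and length correction INSIG1 (0.30, adjusted p 0.0404) and MLXIPL (0.89, 0.0117) passed. Without MG132 1, where 12980 rows in all were called, SREBF2 (−0.85, adjusted p 0.0425), SCAP (−0.91, 0.0444) and INSIG2 (0.98, 0.0141) passed. Of 15 activation and glycerolipid genes, 1 rose and 4 fell; the triglyceride-forming DGAT2 had 1.18, 1.34 and 0.98 FPKM in MG132 and 4.86, 5.62 and 5.58 FPKM in control (−1.55, adjusted p 0.000370). AGPAT1 fell by 1.55 (0.00247), but 7 rows share that symbol and its values are uncertain, and AGPAT2 fell by 0.92 (0.00747), a call lost after the GC and length correction (−0.29, 0.259). Of 14 oxidation genes, 3 rose and 1 fell. HADHB, a subunit of the mitochondrial trifunctional protein, rose by 0.74 (0.00932), a call lost without MG132 2 (0.0532), and HADHA, the other subunit, rose by 0.83 (0.040). Of the 6 mitochondrial synthesis genes 1 fell (MCAT, −1.63, 0.0362), and of the 6 cholesterol genes 2 rose (HMGCS1, 1.25, 0.0281; IDI1, 1.09, 0.0248). The calls of HADHA, MCAT, HMGCS1 and IDI1 were each lost without MG132 2, MG132 3 or any control library. Without the 4 libraries whose values fell with GC content, which left MG132 1 alone in its group, their differences were smaller. They were 0.36 for HADHA, −1.05 for MCAT, 0.62 for HMGCS1 and 0.49 for IDI1. The HADHA call was also lost with no filter on low values (0.0697) and with median-ratio scaling (0.0605), that of MCAT with no filter (0.0571), and those of HADHA, HMGCS1 and IDI1 with only these 2 groups fitted (0.0610 to 0.0791).

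**Figure D5:**
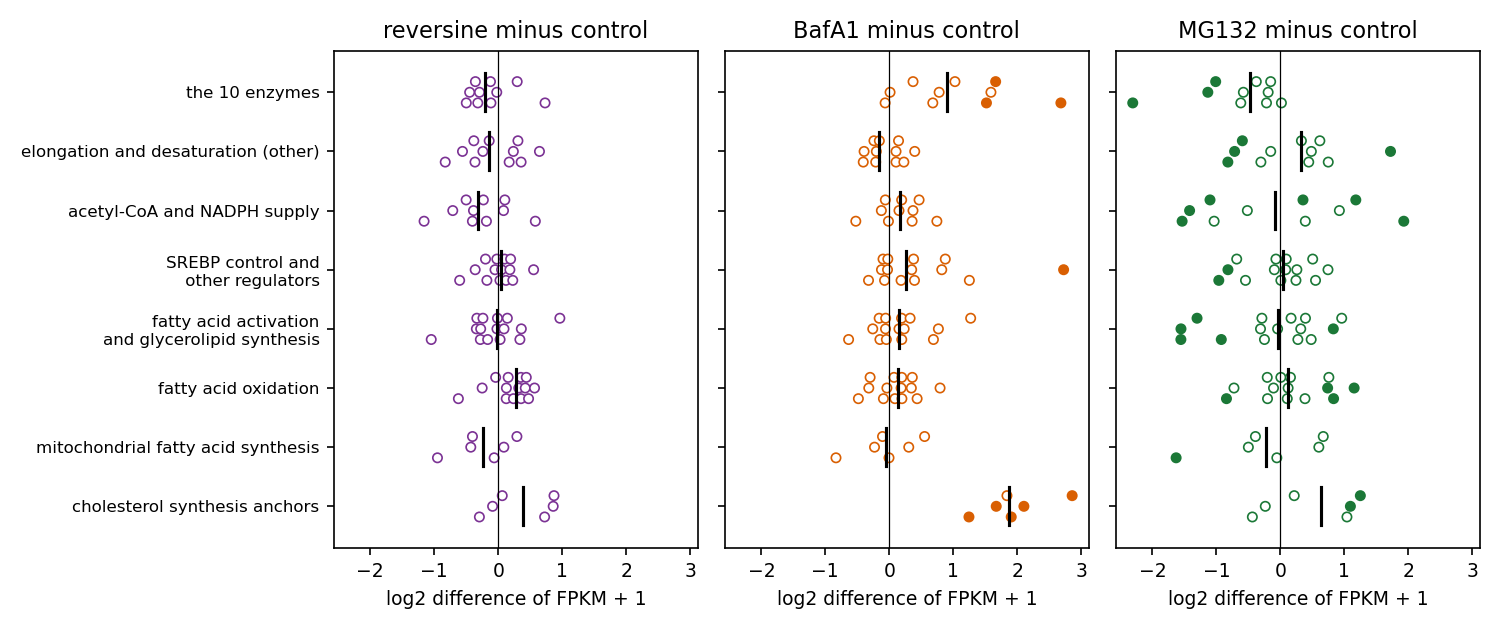
Log2 difference of FPKM + 1 from control for the 10 enzymes and for the tested genes of 7 related lists in reversine, BafA1 and MG132; points are genes, filled points passed the test and black bars are list medians. In BafA1 the filled points outside the 10 enzymes are INSIG1 and 5 cholesterol genes, and in MG132 filled points lie on both sides of 0.

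By the distance between their 4 group means of log2(FPKM + 1), each centred on the gene's own mean, the 5 genes most like SCD among the 30712 tested were PFKFB4 (distance 0.36), AP001468.1 (0.42), RAB20 (0.48), and the rows of the microRNA genes MIR25 (0.49) and MIR762 (0.52). Those most like FASN were MVD (0.22), VLDLR (0.26), ENO2 (0.35), PFKFB3 (0.36) and FDFT1 (0.38). FDFT1 is also in the cholesterol list above, and the likeness is a description over 4 group means.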

How the data were processed

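Per the submitters' processing notes, the tools were Bowtie 1.0.0 and RSEM 1.2.6, with hg19 (GRCh37). Per the labels' protocols, libraries were made from oligo(dT)-selected RNA. The deposited table names no unit in its header. Its values were taken as FPKM, as the authors' RSEM run can give, because the column totals differ between libraries (962891 to 2057718). Read counts and depth are unknown, so no counting interval was given.

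Samples were grouped by the treatment in the labels, and library numbers follow the order of the records and pair nothing. Expression was analysed as log2(FPKM + 1) with limma 3.58.1 in R 4.3.3, with a trended prior (residual degrees of freedom 8), in 1 fit of the 4 groups without covariates, on the 30712 of 53361 rows that reached 1 FPKM in 3 or more of 12 libraries. P-values were adjusted (Benjamini-Hochberg) over all tested rows in each of 6 comparisons, and calls were made under 0.05. Tables were prepared in Python 3.11.15. The fit was tested on simulated data for BafA1 against control, with 30712 genes. It recovered 10.4% of the genes given a log2 change of 1, 53.7% at 2 and 69.7% at 3. The changed genes had a control mean of log2(FPKM + 1) above 3, and the noise was independent between genes and libraries. GC trends and other differences between libraries were not simulated, so recovery in the real libraries may differ.

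The 10 genes, the related gene lists and the markers were chosen with earlier results of these data known. Each list was described by its counts and median, and up to 3 called genes of smallest adjusted p in each list and comparison against control were named, with a set of fixed genes. Some genes chosen by this rule are not reported here. Transcript GC content and length came from GENCODE v29 for 25349 tested rows (82.5%) and 9 of the 10 genes, ACACA having none. Alternatives were a pseudocount of 0.1, no filter, a minimum of 5 FPKM, median-ratio scaling, a GC and length correction, leaving out the 4 libraries whose values fell with GC content, fitting only the 2 groups compared, and leaving out each library. Leaving out those 4 libraries left MG132 1 as the only MG132 library, so the MG132 differences and counts of that alternative rest on it. Promoter sequences are from RefSeq on GRCh38.p14 and were not used with the hg19 values. Rows with a shared symbol or overlapping exons are uncertain, and no strand setting is stated.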

Additional observations from a re-analysis of the deposited data

How the results depend on the processing

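No paired analysis was possible because the labels give the libraries no shared replicate numbers. Of 774 log2 differences of the 10 genes under the alternatives, 668 kept direction and call, 63 lost the call, 14 gained it and 29 changed sign; the cause of each change was not tested. The count of the 10 genes called in reversine against control was 0, and 1 with the GC correction. In BafA1 against control it was 3, with 5 after the GC correction and 1 in each leave-one-out fit (range 1 to 1). For BafA1 against reversine it was 7, but 4 without a filter, 4 with median-ratio scaling, 3 without the 4 libraries, 0 with only the 2 groups, and 3 to 5 leaving out a library. For MG132 against reversine it was 3, but 1 with only the 2 groups and 2 to 5 leaving out a library. It stayed within 1.5 times for MG132 against control (2 to 4) and BafA1 against MG132 (6 to 8).

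Over all rows, calls for reversine against control were 642, beside 1375 with the GC correction, 22 with only the 2 groups and 246 to 561 leaving out a library. For BafA1 against control they were 81, beside 250, 24 and 19 to 34 in the same order. For MG132 against control they were 4549, beside 2679 without the 4 libraries and 2427 to 12980 leaving out a library. For BafA1 against reversine they were 377, beside 721 with the GC correction, 237 without the 4, 5 with only the 2 groups and 142 to 299. For BafA1 against MG132 they were 3334, beside 1863 without the 4, 1468 with only the 2 groups and 1851 to 18401. For MG132 against reversine they were 2000, beside 1001 without the 4, 318 with only the 2 groups and 935 to 17052. The highest counts with MG132 came without MG132 1. Without the 4 libraries MG132 1 was the only MG132 library, so those MG132 counts rest on it. The GC correction moved the median of all rows in MG132 against control to −0.16, beside 0.04 before it.

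These log2 differences changed sign; none was called in the fit as reported. With the GC correction: in reversine against control FASN 0.092, FADS2 0.079 and SREBF1 0.12; in MG132 against control ACACB 0.10, FASN 0.12 and ELOVL5 −0.14; ACACB −0.070 in BafA1 against MG132; FASN 0.032 in MG132 against reversine. Without the 4 libraries: in reversine against control FASN 0.34, FADS2 0.21 and SREBF1 0.22; in MG132 against control FASN 0.060, ELOVL5 −0.22 and SREBF2 0.066; ACACB −0.23 in MG132 against reversine. With median-ratio scaling: ACACB −0.062 in BafA1 and ELOVL5 −0.15 in MG132 against control. Leaving out a library, values ranged as follows, with the libraries that turned the sign named. In reversine against control FASN −0.38 to 0.34 and SREBF1 −0.23 to 0.22 (reversine 1), and FADS2 −0.14 to 0.21 (reversine 1, control 3). In BafA1 against control ACACB −0.10 to 0.083 (control 1) and ELOVL6 −0.23 to 0.22 (BafA1 1, control 3). In MG132 against control ACACB −0.31 to 0.071 (MG132 1) and ELOVL5 −0.058 to 0.14 (MG132 2, MG132 3, control 2). In BafA1 against MG132 ACACB −0.059 to 0.32 (MG132 1) and ELOVL6 −0.021 to 1.42 (MG132 2). In MG132 against reversine ACACA −0.18 to 0.027 (reversine 2) and ELOVL6 −1.04 to 0.40 (MG132 1, MG132 2).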
